A study of Mus musculus with 13 samples.

Results

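The 10 genes described here encode transcription factors and cofactors that build red cell precursors: Gata1, Gata2, Zfpm1, Klf1, Tal1, Lmo2, Ldb1, Gfi1b, Nfe2 and Bcl11a. They were chosen by name, as the genes whose probe set is annotated to that gene alone. All 10 were found, among 19938 genes measured in mouse bone marrow, and each is read by 1 probe set. The animals were male C57BL/6 mice, 6 weeks of age and without a genotype in the labels, kept on standard chow. Phlebotomised mice lost 500 µL of blood by retro-orbital puncture, and femurs gave 1 sample at 4 h, 3 at 9 h, and 2 each at 12 h, 15 h and 48 h, beside 3 baseline controls. These are samples of whole marrow, and the labels do not say whether each is a separate animal. The study asked how the marrow's transcripts change after a haemorrhage. By RefSeq on GRCm38.p6 the genes lie at chrX:7959260-7976663 (Gata1), chr6:88193891-88207032 (Gata2), chr8:122281856-122337862 (Zfpm1), chr4:115056426-115071755 (Tal1), chr2:103957903-103981878 (Lmo2), chr19:46031525-46048145 (Ldb1), chr15:103248212-103258403 (Nfe2) and chr11:24076564-24173558 (Bcl11a), with Gfi1b and Klf1 given where their promoters are shown. Each RNA sample was hybridised to 1 Affymetrix Mouse Gene 1.0 ST array, a 1-colour microarray, and values are log2 levels, so that a difference of 1 is a doubling.

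Blood loss raises erythropoietin, a hormone that keeps erythroid progenitors alive and lets them mature. GATA1 is the master regulator of this maturation. It binds DNA at GATA sequences, often in one complex with TAL1, LMO2 and LDB1, and works with the cofactor FOG1 (the product of Zfpm1). GATA2 holds the same sites in earlier progenitors and is replaced by GATA1 as cells mature. KLF1 binds CACCC elements and switches on globin, membrane and heme genes. GFI1B is a repressor that recruits histone-modifying enzymes, and NFE2 acts as a dimer with small Maf proteins in red cell and platelet precursors. BCL11A silences globin genes of earlier development and is also needed by B cells.

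The sample titles carry numbers in 2 runs, 10 arrays in the larger and 3 in the smaller. The smaller run holds control replicate 3 and 9 h replicates 1 and 2. The array medians lay between 6.98 and 7.03 in the larger run and between 7.77 and 7.8 in the smaller, and 62.3% of probe sets in the smaller run had a value that recurred exactly on at least 2 of its 3 arrays. Among the 10 genes this was so for 5, and for Zfpm1 and Bcl11a all 3 values were the same. The main tests were therefore made within the larger run. The smaller run is given as values and, where stated, through a fit of all 13 arrays with a term for the run. Checked against its markers, the labelled tissue had high levels of Slc4a1, the band 3 anion exchanger of red cells (12.96 to 13.50), and Mpo, the myeloperoxidase of granulocyte precursors (12.67 to 12.86), on every array of the larger run. Markers of other organs stood high on some arrays. Small intestine markers stood at a mean of 8.89 on the 4 h array against 6.23 and 6.29 in the controls, and 21 of 26 rose there by limma. Skeletal muscle markers stood at 9.62 on that array against 7.87 and 7.94. Liver markers had means of 7.33 and 6.89 on the 48 h arrays, against 5.49 to 5.83 on all others of the larger run. The 2 controls also differed from each other: all 37 measured erythroid genes (the list is described further on) were higher in control replicate 2 than in replicate 1, with a median gap of 0.44.

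None of the 10 genes passed the test in any of the 7 comparisons of the larger run, made with limma over 19938 genes at a Benjamini-Hochberg adjusted p under 0.05. The share of all genes that passed was 1.38% at 4 h, 0.0802% at 9 h, 0.0502% at 12 h, 0.11% at 15 h, 0.155% at 48 h and 0.186% for the mean of 12 and 15 h, each against control, and 0.276% for 48 h against the mean of 12 and 15 h. The largest difference in these comparisons was that of Gfi1b between 48 h and the middle times, and it came closest to the threshold. Without adjustment, 6 of the 10 genes had a p under 0.05 in that comparison, all as higher, against 14.3% of all genes in either direction. At 48 h against control 4 had such a p, all as higher, against 11.8%. At 4 h 1 gene (Gfi1b, lower) did, against 11.2%, and at 9 h 1 gene (Bcl11a, higher), against 12.7%. None did at 12 h, at 15 h or for their mean, against 9.72%, 9.52% and 11.2% of all genes.

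**Figure D1:**
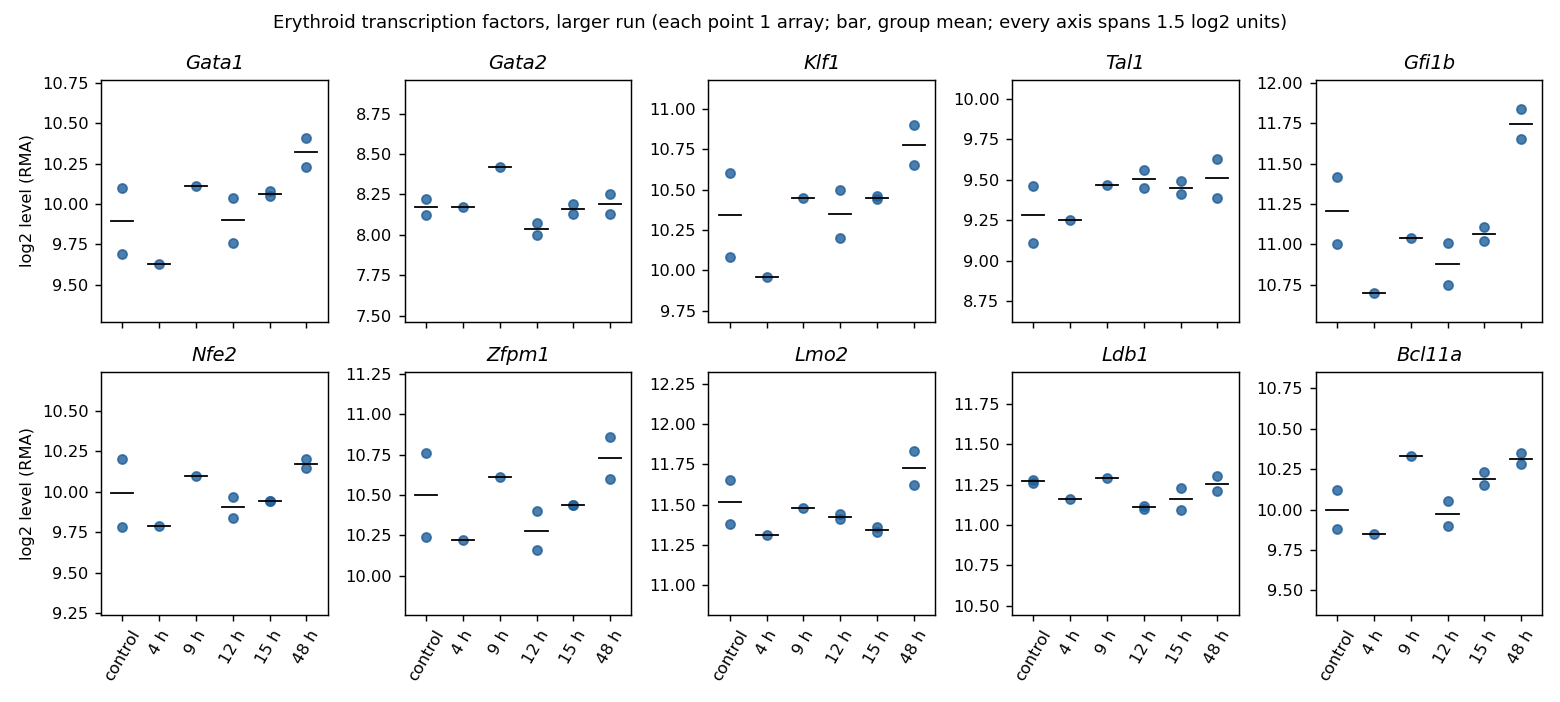
Log2 level (vertical axis, RMA) of each of the 10 genes on the 10 arrays of the larger run, by time after phlebotomy (horizontal axis); each point is 1 array and each bar a group mean. The 48 h arrays of Gfi1b, at 11.84 and 11.65, lie above all 8 other arrays, while the 2 controls differ by 0.42.

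Gfi1b stood at log2 levels of 11.00 and 11.42 in the controls and at 10.70 on the 4 h array. It was 11.04 on the 9 h array, 10.75 and 11.01 at 12 h, 11.02 and 11.11 at 15 h, and 11.84 and 11.65 at 48 h. Both 48 h arrays were higher than every other array of the run, and the 4 h array was the lowest. The mean at 48 h was 11.74 ± 0.14 (SD, n = 2) and that of the 4 arrays at 12 and 15 h 10.97 ± 0.16 (SD, n = 4). The difference was 0.77 ± 0.13 (log2 ± SE, 95% interval 0.47 to 1.07), or 1.71-fold, with an unadjusted p of 0.000221 and an adjusted p of 0.0637 by limma. Its rank was 55 of 19938 differences, from the most positive down. Whether Gfi1b passed depended on the fit. With the contrast's groups alone the limma adjusted p was 0.0153, with an intensity trend and robust moderation 0.0338, and with array weights 0.0426. The controls enter this comparison only through the shared spread. With each array left out in turn the difference ran from 0.67 to 0.87. In a fit of all 13 arrays with a term for the run the limma adjusted p of Gfi1b was 0.0178. That fit takes in the smaller run with its repeated values, and what these do to the shared spread was not tested. Against the controls Gfi1b was higher at 48 h by 0.53 ± 0.15 (adjusted p = 0.266), and at the mean of 12 and 15 h it was lower by a difference of −0.24 ± 0.13 (95% interval −0.53 to 0.06). In the smaller run its levels at 9 h were 11.68 and 11.72 against 12.04 in the control of that run, so both 9 h arrays were lower. In the larger run the 9 h array lay between the 2 controls.

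The transcription start of Gfi1b in RefSeq lies on the minus strand of chromosome 2, where the gene spans chr2:28609450-28621982 (GRCm38.p6). The 250 bases before it, shown because this gene had the largest differences and is known to be controlled by GATA1 and by its own product, are given 5′ to 3′ with the GATA match in capitals.
Gfi1b, chr2:28621983-28622232, minus strand: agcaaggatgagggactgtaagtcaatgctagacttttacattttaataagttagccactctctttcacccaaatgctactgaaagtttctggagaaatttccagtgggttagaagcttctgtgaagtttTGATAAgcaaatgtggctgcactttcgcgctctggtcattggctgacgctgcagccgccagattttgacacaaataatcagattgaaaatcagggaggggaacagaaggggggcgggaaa
The search was for AGATAA and TGATAA, and for either with a final G in place of the final A, on both strands. The match TGATAA begins 120 bases before the start. At least 1 such match occurs in 26.5% of the 32851 windows of this length in the RefSeq promoter table. The letters CCNCNCCC, a CACCC-type element read on both strands, occur at 2 places in the same window, beginning 28 and 12 bases before the start, and in 45.9% of all windows. No GATA match overlaps a CCNCNCCC match in this window, and a match is a description of letters, not of binding.

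Gata1 had levels of 9.69 and 10.10 in the controls, 9.63 at 4 h and 10.11 at 9 h. It stood at 9.76 and 10.04 at 12 h, 10.08 and 10.05 at 15 h, and 10.41 and 10.23 at 48 h. Both 48 h arrays were above all others, and the 12 h arrays lay within the span of the controls. The mean at 48 h was 10.32 ± 0.13 (SD, n = 2) against 9.98 ± 0.15 (SD, n = 4) at 12 and 15 h. The difference of 0.34 ± 0.13 had a 95% interval of 0.05 to 0.63 and did not pass (limma adjusted p = 0.279), and neither did that from the controls, 0.43 ± 0.15 (adjusted p = 0.320). Gata2, which GATA1 replaces on shared sites, was nearly level. It stood at 8.12 and 8.22 in the controls, 8.17 at 4 h, 8.42 at 9 h, 8.0 and 8.07 at 12 h, 8.19 and 8.13 at 15 h, and 8.25 and 8.13 at 48 h. Its 9 h array was the highest and both 12 h arrays were the lowest. For Gata2 the difference between 48 h and the middle times was 0.09 ± 0.08 (95% interval −0.09 to 0.27), and between 48 h and control 0.02 ± 0.09. At 9 h the difference from control was 0.25 ± 0.12 (adjusted p = 0.411) in the larger run. In the smaller run the 9 h arrays were at 9.07 and 8.92 against 9.09. Zfpm1, whose product FOG1 binds GATA1, stood at 10.24 and 10.76 in the controls, a gap of 0.53 and the widest of the 10 genes. It was 10.22 at 4 h, 10.61 at 9 h, 10.16 and 10.40 at 12 h, 10.44 on both arrays at 15 h, and 10.86 and 10.60 at 48 h. The 48 h arrays were above those at 12 and 15 h but 1 of them was below control replicate 2. The difference between 48 h and the middle times was 0.37 ± 0.15 (adjusted p = 0.301), and that from the controls 0.23 ± 0.17.

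Klf1, the CACCC-binding factor, had levels of 10.08 and 10.60 in the controls, 9.96 at 4 h, 10.45 at 9 h, 10.20 and 10.50 at 12 h, 10.44 and 10.46 at 15 h, and 10.90 and 10.65 at 48 h. Both 48 h arrays were the highest of the run, with 48 h replicate 2 close above control replicate 2. The mean was 10.77 ± 0.18 (SD, n = 2) at 48 h and 10.40 ± 0.13 (SD, n = 4) at 12 and 15 h, a difference of 0.37 ± 0.15 (limma adjusted p = 0.308). Against control it was 0.44 ± 0.17 at 48 h (adjusted p = 0.380) and 0.06 ± 0.15 for the middle times. The gene lies on chr8:84901982-84905291 (GRCm38.p6). The 250 bases before its start are shown because GATA factors are known to control it, and the GATA match is again in capitals.
Klf1, chr8:84901732-84901981, plus strand: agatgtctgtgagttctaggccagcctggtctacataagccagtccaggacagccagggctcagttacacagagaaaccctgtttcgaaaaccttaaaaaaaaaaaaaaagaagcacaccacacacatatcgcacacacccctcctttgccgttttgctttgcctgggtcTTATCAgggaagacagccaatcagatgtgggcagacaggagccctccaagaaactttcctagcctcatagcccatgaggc
The capitals read TTATCA on this strand, which is TGATAA on the other, and begin 80 bases before the start. No CCNCNCCC letters were found in this window. Promoter windows were held for 8 of the 10 genes, 12 windows in all because some genes have several starts. A GATA match was found in 1 window each of Klf1, Tal1, Gfi1b and Ldb1, and that window of Ldb1 held 2. This makes 4 of 12 windows, against 26.5% of all windows. The CCNCNCCC letters were in 10 of the 12, against 45.9% of all windows.

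Tal1, the helix-loop-helix factor of the complex, had levels of 9.11 and 9.46 in the controls and 9.25 at 4 h. It was 9.47 at 9 h, 9.45 and 9.56 at 12 h, 9.49 and 9.41 at 15 h, and 9.63 and 9.39 at 48 h. Control replicate 1 was the lowest array, and the arrays from 9 h onward lay on both sides of control replicate 2. The differences from control were 0.18 ± 0.17 at 9 h, 0.21 ± 0.14 at 12 h, 0.16 ± 0.14 at 15 h and 0.22 ± 0.14 at 48 h, with adjusted p by limma from 0.563 to 0.750. In the smaller run Tal1 was 10.46 and 10.41 at 9 h against 10.11 in the control, higher by 0.36 and 0.31. There 0.371% of all genes had both 9 h arrays above the control by more than 0.3. With all 13 arrays the 9 h difference was 0.26 ± 0.11 (adjusted p = 0.806). Between 48 h and the middle times Tal1 differed by 0.03 ± 0.12 (95% interval −0.23 to 0.30).

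Lmo2, the bridging protein of the complex, was 11.38 and 11.65 in the controls, 11.31 at 4 h, 11.48 at 9 h, 11.41 and 11.44 at 12 h, 11.36 and 11.33 at 15 h, and 11.83 and 11.62 at 48 h. The 4 arrays of the middle times lay close together and below both 48 h arrays. The mean was 11.72 ± 0.15 (SD, n = 2) at 48 h against 11.38 ± 0.05 (SD, n = 4), a difference of 0.34 ± 0.10 (95% interval 0.12 to 0.57, limma adjusted p = 0.182). Against the controls the 48 h difference was 0.21 ± 0.12. Ldb1, the dimerising cofactor that joins distant elements to promoters, varied least, from 11.09 to 11.30 over the 10 arrays. It stood at 11.28 and 11.26 in the controls and at 11.10 and 11.12 at 12 h, 11.23 and 11.09 at 15 h, so that all 4 arrays of the middle times were below both controls. The difference was −0.13 ± 0.08 (adjusted p = 0.567). It was the only one of the 10 genes set apart in this way, against 10.2% of all genes that were lower without overlap. At 48 h Ldb1 stood at 11.30 and 11.21, on both sides of the controls, a difference of −0.02 ± 0.09.

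Nfe2 was 9.78 and 10.20 in the controls, 9.79 at 4 h, 10.10 at 9 h, 9.84 and 9.97 at 12 h, 9.94 on both arrays at 15 h, and 10.15 and 10.20 at 48 h. The controls spanned nearly all the other arrays. Its 48 h mean of 10.17 ± 0.03 (SD, n = 2) was above that of the middle times, 9.92 ± 0.06 (SD, n = 4), by 0.25 ± 0.12 (limma adjusted p = 0.367), and the arrays did not overlap. Bcl11a was 9.88 and 10.12 in the controls, 9.85 at 4 h, 10.33 at 9 h, 9.90 and 10.05 at 12 h, 10.15 and 10.23 at 15 h, and 10.35 and 10.28 at 48 h. Its arrays at 9, 15 and 48 h were above both controls. The differences from control were 0.33 ± 0.13 at 9 h (adjusted p = 0.343), 0.19 ± 0.11 at 15 h (adjusted p = 0.621) and 0.32 ± 0.11 at 48 h (adjusted p = 0.318). B-lineage markers label other cells that express Bcl11a. Their mean was 9.60 and 9.54 in the controls, 9.75 at 9 h, 9.38 and 9.67 at 15 h, and 9.27 and 9.45 at 48 h, so that the 9 h array was the highest for this list and the 48 h arrays were below both controls. At 9 h 11 of 14 of these markers were above 0 (median 0.14), against 55.7% of all genes. The part of B cells in the Bcl11a differences was not tested.

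Set side by side, 48 h against the mean of 12 and 15 h was the comparison in which the 10 genes lay most to one side. All 10 differences were above 0, against 55.5% of all genes. Their median was 0.30, against 0.02 over all genes. For 7 of the 10 (Gata1, Klf1, Gfi1b, Nfe2, Zfpm1, Lmo2 and Bcl11a) both 48 h arrays were above all 4 arrays of the middle times, against 15.4% of all genes. All 10 are read on the same arrays, and 48 h replicate 1 was above replicate 2 for 9 of them. In whole marrow, more cells of a type and more RNA per cell cannot be told apart. Several cell type lists moved alongside. Of 14 liver markers 8 rose in this comparison by limma and all 14 lay above without overlap. They were led by Alb, the liver's albumin, by 5.04 ± 0.17 (adjusted p = 3.8e-06), with Fgg, a fibrinogen chain, by 2.06 ± 0.11, and Ttr, transthyretin, by 1.53 ± 0.09. Alb stood at 11.69 and 11.44 against 6.26 to 6.75. Of 13 bone, stromal and endothelial markers none passed by limma. An unadjusted p under 0.05 was found for 9, against 14.3% of all genes in either direction. Without overlap 9 were lower, against 12% of all genes (median −0.55). The list means were 9.27 and 9.62 at 48 h against 9.82 to 10.11. Skeletal muscle markers had a mean of 8.83 on 48 h replicate 1 and 7.02 on replicate 2, against 7.17 to 8.17 at 12 and 15 h. The part of these cells in the differences of the 10 genes was not tested.

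**Figure D2:**
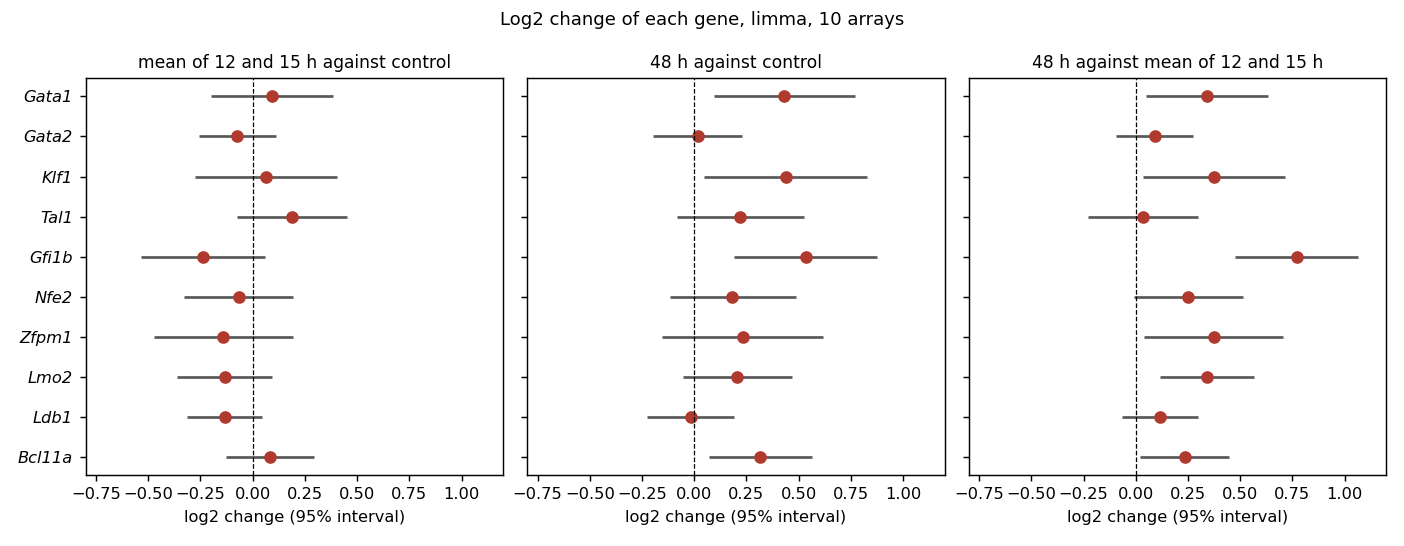
Log2 change with its 95% interval (horizontal axis) for each of the 10 genes (vertical axis) in 3 comparisons of the larger run, from the limma fit to 10 arrays. In 48 h against the mean of 12 and 15 h, Gfi1b lies at 0.77 and the others between 0.03 and 0.37.

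At 48 h against control 9 of the 10 differences were above 0, against 54.8% of all genes, with a median of 0.23 (0.02 over all genes). For 4 genes (Gata1, Klf1, Gfi1b and Bcl11a) the arrays did not overlap, against 24.2% of all genes. The mean of 12 and 15 h against control showed the 10 genes on both sides, 4 above and 6 below 0, with a median of −0.07 and a range from −0.24 for Gfi1b to 0.19 for Tal1. Over all genes 28 rose and 9 fell in that comparison, and after a further quantile normalization these were 11 and 7. At 12 h alone the median was −0.09 and at 15 h −0.03. At 12 h the arrays of Gata2 and Ldb1 were lower than both controls, against 20% of all genes, and at 15 h those of Lmo2 and Ldb1, against 19.2%, with Bcl11a higher, against 20.3%. The comparisons with control share the same 2 control arrays, and those between late and middle times share the arrays at 12, 15 and 48 h.

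The single 4 h array was below both controls for 7 of the 10 genes, against 35.5% of all genes, with a median difference of −0.20. For Gfi1b it was −0.51 ± 0.19 (limma adjusted p = 0.338) and for Klf1 −0.38 ± 0.21 (adjusted p = 0.552). For Gata2 it was 0.00 ± 0.12 and for Tal1 −0.04 ± 0.17. The lower values were not particular to the 10 genes. Of the 37 measured erythroid genes, 0 were above the control mean on this array, against 50.5% of all genes. Their median difference was −0.28. With 1 array at this time, the spread was taken from the other groups. This array had the highest intestinal and muscle marker means of the larger run. On it Reg3g, an antimicrobial lectin of the gut, stood at 12.32 against 7.61 and 7.54 in the controls. The controls in turn were above the later arrays of this run, where Reg3g stood at 5.17 to 6.11. The part of such RNA in the differences from control, the lower values of this 4 h array included, was not tested. The only difference between 2 times that passed for any of the 10 genes, among the 10 pairs of times, involved this array: Gfi1b rose between 4 h and 48 h by 1.05 ± 0.19 (adjusted p = 0.0205; 2 arrays against 1), where 2.34% of all genes passed.

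At 9 h the larger run has 1 array and the smaller run 2, each to be read against controls of the same run. In the larger run 8 of the 10 genes were above the control mean, against 55.7% of all genes, and 5 above both controls, against 40.9%. On the same array 12 of 13 bone, stromal and endothelial markers were below the control mean (median −0.61, 7 at an unadjusted p under 0.05 by limma, none after adjustment) and 15 of 15 skeletal muscle markers were above it (median 0.67). Over all genes 12.7% had such an unadjusted p in either direction. The part of these bone, stromal, endothelial and muscle cells in the values of the 10 genes was not tested. Markers of other organs also differed in the smaller run. There Alb stood at 9.68 and 7.31 at 9 h against 7.74 in the control, and Reg3g at 5.41 and 5.54 against 7.71. Muscle markers had means of 7.91 and 8.58 against 8.99. The part of this RNA was not tested. In the smaller run only Tal1 and Gfi1b had both 9 h arrays more than 0.3 away from the control, Tal1 above and Gfi1b below. Over all genes 0.461% were below it by that much on both arrays. Of the 8 others, 5 had values repeated on at least 2 of these 3 arrays, so a difference of 0 there cannot be read as a steady level.

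**Figure D3:**
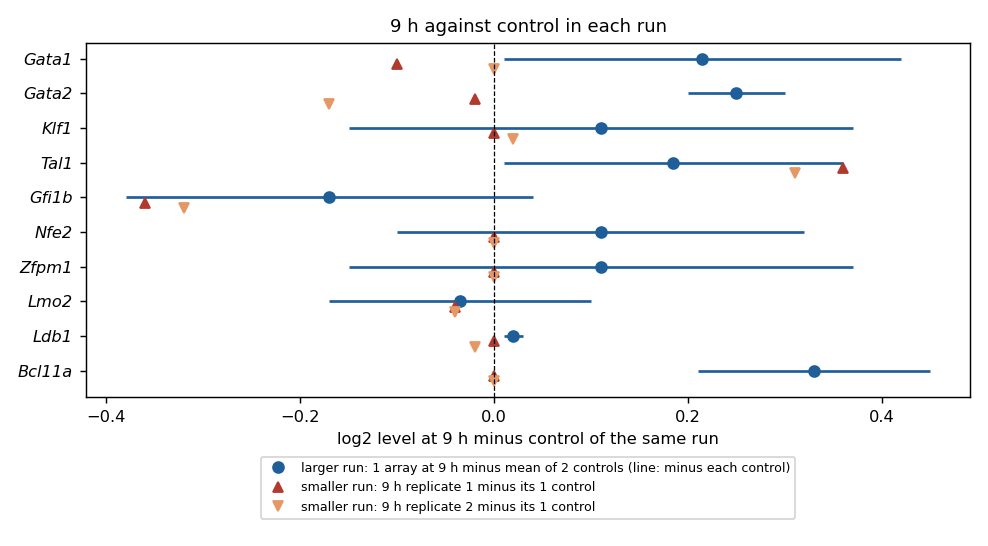
Log2 level at 9 h minus control of the same run (horizontal axis) for the 10 genes; circles are the array of the larger run against the mean of 2 controls, with a line to the difference from each control, and triangles are the 2 arrays of the smaller run against its 1 control. Tal1 lies at 0.36 and 0.31 and Gfi1b at −0.36 and −0.32 in the smaller run.

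Among the partners and cofactors of these proteins, 26 genes were listed and measured, and none rose or fell in any of the 7 comparisons by limma, with 1 to 4 at an unadjusted p under 0.05. Over all genes the share with such a p ran from 9.52% to 14.3% by comparison. The median difference of the 26 genes between 48 h and the middle times was 0.08 (0.02 over all genes). Above 0 were 19 of 26, against 55.5% of all genes. The partners named next were picked for their known role, outside the rule for named genes. Lyl1, the close relative of Tal1, was 10.04 and 10.07 in the controls and 10.10 and 10.07 at 48 h. Cbfa2t3 (ETO2), a repressor in the TAL1 complex, was 8.71 and 8.97 in the controls and 8.78 and 8.76 at 48 h. The small Maf partner of NFE2 encoded by Mafk was 8.87 and 9.15 in the controls and 9.13 and 9.06 at 48 h. Kdm1a (LSD1), the demethylase that GFI1B recruits, stayed between 8.90 and 9.05 on all 10 arrays. These 4 were thus close to their control levels at 48 h, with differences between −0.07 and 0.09, but they do not stand for all 26. Against control at 48 h Rbbp4 differed by 0.335 ± 0.097, Bach1 by 0.253 ± 0.087 and Maff by −0.27 ± 0.113 (limma adjusted p = 0.271, 0.319 and 0.397). Between 48 h and the middle times Ssbp3 differed by 0.406 ± 0.108 (limma adjusted p = 0.155).

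Of 30 other transcription factors of the erythroid and neighbouring lineages, none passed in any comparison by limma, with 1 to 5 at an unadjusted p under 0.05. The share over all genes was again 9.52% to 14.3% by comparison. The median of the 30 factors was 0.04 for 48 h against the middle times. Sox6, which acts with BCL11A on globin genes, was 9.76 and 10.21 in the controls, 9.67 to 9.90 at 12 and 15 h, and 10.45 and 10.17 at 48 h, a difference of 0.48 ± 0.14 between 48 h and the middle times (adjusted p = 0.175). E2f2, a cell cycle factor of maturing erythroblasts, differed by 0.34 ± 0.12 (adjusted p = 0.245). Spi1 (PU.1), the myeloid factor that opposes GATA1, was 11.38 and 11.29 in the controls and 11.08 and 11.09 at 48 h, below every other array, with a difference from control of −0.25 ± 0.10 (adjusted p = 0.376). Myb, a factor of immature progenitors, stayed between 11.05 and 11.33.

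The erythroid genes that GATA1, TAL1 and KLF1 are known to control formed a list of 48, of which 37 were measured; no globin was among them. None passed in any of the 7 comparisons by limma. At an unadjusted p under 0.05 there were 2 to 20, the 20 in 48 h against the middle times and all as higher. Over all genes 14.3% had such a p in that comparison, in either direction. For 48 h against the middle times 35 of 37 were above 0, against 55.5% of all genes, and the median was 0.31. Without overlap 32 lay above, against 15.4% of all genes. Against control at 48 h 34 of 37 were above 0, against 54.8% of all genes, with a median of 0.27. The mean level of the list was 11.02 and 11.45 in the controls, 10.94 at 4 h, 11.22 at 9 h, 11.14 and 11.26 at 12 h, 11.18 and 11.20 at 15 h, and 11.56 and 11.42 at 48 h. Control replicate 2 thus overlapped the 48 h arrays. Epor, the erythropoietin receptor, stood at 9.35 and 9.98 in the controls and at 10.09 and 9.76 at 48 h. Ermap, an erythroblast membrane protein, was 11.64 and 12.19 in the controls, 11.54 to 11.76 at 12 and 15 h, and 12.32 and 12.09 at 48 h. Tfrc, the transferrin receptor, had another order: 11.53 and 12.00 in the controls, 12.18 to 12.37 at 12 and 15 h, and 12.18 and 12.19 at 48 h, a difference of 0.48 ± 0.12 between the middle times and control (adjusted p = 0.190).

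**Figure D4:**
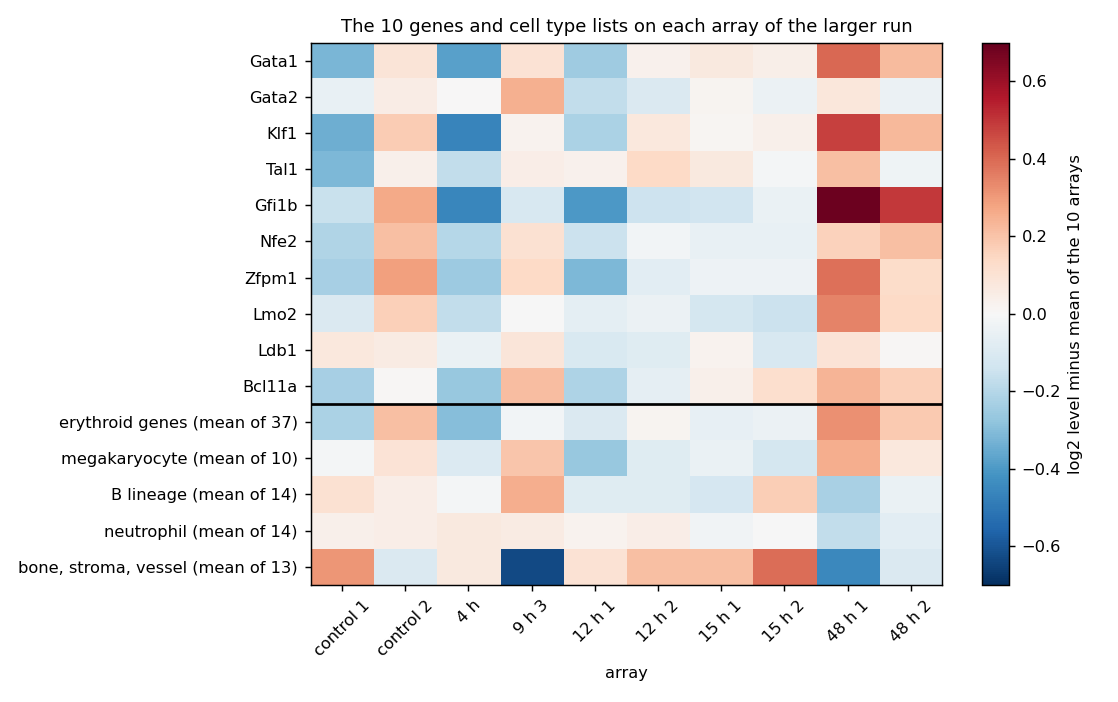
Log2 level minus the mean of the 10 arrays (colour) for the 10 genes and for the mean of 5 cell type lists (rows) on each array of the larger run (columns). Control 2 and both 48 h arrays are red and control 1 and the 4 h array blue for most of the 10 genes and for the erythroid list.

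The 10 genes differed in how closely they followed that list across arrays. Over the 10 arrays of the larger run, each read from 1 RNA sample of mixed cells, Pearson correlations with its mean were 0.96 for Klf1 and 0.90 to 0.91 for Gata1, Gfi1b, Nfe2, Zfpm1 and Lmo2. They were 0.75 for Bcl11a and 0.72 for Tal1, and 0.35 for Ldb1 and 0.24 for Gata2. Ldb1 and Gata2 also varied least over these arrays (SD 0.08 and 0.11), so their correlations rest on little variation. Among the 45 pairs, Gata1 with Klf1 was the closest (0.98) and Tal1 with Ldb1 the least close (−0.01). The genes most like Klf1 were Lpin2, a phosphatidate phosphatase (0.990), Aurka, a mitotic kinase (0.989), and Gata1 (0.981). For Gata1 they were Klf1, Aurka (0.981) and Dennd4a (0.980). Those most like Gfi1b were Mcm7, a subunit of the replicative helicase (0.982), Psmf1, a proteasome inhibitor (0.979), and Slc38a5, an amino acid transporter (0.973). For Gata2 they were Kmt2d, a histone methyltransferase (0.964), Olfr1209, an olfactory receptor (0.954), and Ttll3 (0.950). Genes with an SD of at least 0.15 over these arrays were considered, 7082 for each but Gata2 with 7083. Gata2 itself was under that SD. The genes named as most like a member are the 3 highest of that many correlations over 10 arrays. Values this high were thus selected for, and shared regulation was not tested. The lists of other marrow cells and of muscle held no gene past the threshold by limma in 48 h against the middle times. Of 10 megakaryocyte markers, a lineage that shares many of these factors, 7 had an unadjusted p under 0.05 as higher and the median was 0.28. Over all genes 14.3% had such a p in either direction, the share to set beside the counts that follow too. Of 9 stem and progenitor markers 2 had such a p (median 0.17), and of 10 mast cell and basophil markers 3 did, as lower (median −0.08). It was 1 of 14 for B-lineage markers (median −0.09), 2 of 14 for neutrophil markers (median −0.10) and 0 of 15 for skeletal muscle markers (median 0.25, over 48 h arrays that differ widely). Of 26 small intestine markers 2 rose there, Apoa1 by 2.0 ± 0.11 (adjusted p = 8.97e-05) and Fabp1 by 2.19 ± 0.28 (adjusted p = 0.0168), both of which liver also expresses. Of the same list 5 fell in the mean of 12 and 15 h against control, led by Reg3g (−1.85 ± 0.10), Fabp2, a gut fatty acid carrier (−2.04 ± 0.15), and Reg3b, a relative of Reg3g (−1.68 ± 0.17).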

How the data were processed

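The deposited table holds 1 column of log2 levels per array for 35557 probe sets, which the authors computed with the RMA method (submitters' processing notes); its version and the set of arrays normalized together are not given in the sources used here. No scanner file was used. Groups come from the time in each label, and the run from the title number. Replicate numbers come from sample order and link no samples across groups. As separate animals are not named, the p-values reflect only how far these samples scatter, which may be technical.

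By the platform annotation 21789 probe sets carry a single symbol and 1621 more than one, while 12147 are unnamed here. For 21698 the Entrez identifier gave the current symbol. For the 999 genes with several probe sets that with the highest mean over all arrays was used, which left 19938 genes. A limma 3.58.1 model (R 4.3.3) with 6 groups was fitted to the 10 arrays of the larger run (4 residual and 5.17 prior degrees of freedom), with eBayes and Benjamini-Hochberg adjustment over all genes. Precision is set by how few arrays there are: the median SE of a difference ran from 0.10 to 0.14. Figures used matplotlib 3.10.9 in Python 3.11.15.

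The 10 genes and the 12 gene lists were chosen with earlier results of these data known. The text names all 10 genes, list members past the threshold in the middle and late comparisons (up to 3 per list, smallest p), the 3 genes most like Gata1, Klf1, Gata2 and Gfi1b by Pearson correlation, predicted genes skipped, and defining markers; other names were added after their values were seen. Promoter sequences are those of RefSeq on GRCm38.p6; Nfe2 and Lmo2 had no entry. Alternatives used all 13 arrays with a run term, the contrast's groups alone, other filters, probe set rules, normalizations and moderation, array weights, and each array left out in turn.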

Additional observations from a re-analysis of the deposited data

Results flagged for a closer look

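Gfi1b differed between 2 times after phlebotomy: it was higher at 48 h than at 4 h by a log2 difference of 1.05, past the adjusted threshold of the limma fit. The 4 h time has 1 array, which also carries intestinal and muscle transcripts, and the 10 pairs of times were examined for all 10 genes.

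The smaller run takes no part in the main tests of the report. It enters only the fit of all 13 arrays with a term for the run. In the smaller run Tal1 was above the control of that run by 0.36 on 9 h replicate 1 and by 0.31 on 9 h replicate 2. With all 13 arrays its 9 h difference did not pass (limma adjusted p = 0.806). The run has 1 control and many repeated values, and its arrays differ in markers of other organs.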

How the results depend on the processing

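The number of the 10 genes past the threshold was compared under 9 alternative settings and with each of the 10 arrays left out in turn. It stayed at 0 in 125 of 131 cases. The exceptions were all Gfi1b in 48 h against the mean of 12 and 15 h: the count was 1 with all 13 arrays and a run term (adjusted p = 0.0178), with the contrast's groups alone (0.0153), with an intensity trend and robust moderation (0.0338) and with array weights (0.0426). With 1 array left out it ran from 0 to 1, the 1 arising without either control. Over all 19 alternatives its difference ran from 0.67 to 0.87 and its adjusted p from 0.0153 to 0.619.

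The counts over all genes moved more. With other settings and with 1 array left out they ran from 157 to 555 at 4 h (275 in the report), 0 to 356 at 9 h (16), 2 to 21 at 12 h (10), 1 to 68 at 15 h (22), 12 to 205 at 48 h (31), 2 to 136 for the mean of 12 and 15 h (37), and 17 to 499 for 48 h against the middle times (55). The cause was not tested. Of the 2 other scalings, only quantile normalization moved the share of higher calls by over 10 points, and for the mean of 12 and 15 h alone, from 75.7% to 61.1%. Other alternatives moved it further. For 48 h against the middle times it went from 83.6% to 45.1% with the contrast's groups alone. Leaving out 1 of the controls also moved it further in that comparison, and at 4 h, 9 h and 48 h against control.

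Of 1310 values of single genes, 1259 kept their sign and side of the threshold, 6 were Gfi1b passing, and 45 changed sign, none of them past the threshold and none with a size over 0.23 in the report. Without a control there were 29 of these. Under other settings Gata2 at 4 h was −0.057 with all 13 arrays, −0.081 after quantile normalization and −0.073 after centring, and at 48 h −0.041 and −0.008 in the first 2 of these. Gata1 at 12 h was −0.037 with all 13 arrays and −0.017 after quantile normalization, and Klf1 at 12 h −0.001 with all 13. The rest changed sign when 1 array was left out. At 4 h against control the ranges were −0.047 to 0.048 for Gata2, −0.21 to 0.14 for Tal1 and −0.41 to 0.007 for Nfe2. At 9 h the ranges were −0.15 to 0.37 for Klf1, −0.10 to 0.32 for Nfe2, −0.16 to 0.37 for Zfpm1, −0.38 to 0.037 for Gfi1b and −0.17 to 0.093 for Lmo2. At 12 h the ranges were −0.20 to 0.21 for Gata1, −0.24 to 0.28 for Klf1, −0.29 to 0.12 for Nfe2, −0.48 to 0.045 for Zfpm1, −0.23 to 0.040 for Lmo2 and −0.14 to 0.093 for Bcl11a. At 15 h the ranges were −0.032 to 0.38 for Gata1, −0.15 to 0.37 for Klf1, −0.016 to 0.33 for Tal1, −0.059 to 0.036 for Gata2, −0.35 to 0.065 for Gfi1b, −0.26 to 0.16 for Nfe2 and −0.33 to 0.20 for Zfpm1. At 48 h the ranges were −0.043 to 0.075 for Gata2, −0.027 to 0.39 for Nfe2, −0.032 to 0.50 for Zfpm1 and −0.059 to 0.025 for Ldb1. For the middle times against control the ranges were −0.12 to 0.30 for Gata1, −0.20 to 0.33 for Klf1, −0.035 to 0.20 for Bcl11a, −0.28 to 0.14 for Nfe2 and −0.41 to 0.12 for Zfpm1. For 48 h against the middle times the ranges were −0.087 to 0.16 for Tal1.

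No paired analysis was possible because replicate numbers follow sample order and pair nothing. Groups of 1 or 2 arrays limit every value, and comparisons with control rest on 2 controls that differ by up to 0.53 in these genes.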
